A study of Mus musculus with 9 samples.

Results

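The TAM receptor genes Mertk, Axl and Tyro3, the genes of their ligands Gas6 and Pros1, and Megf10, which encodes a further engulfment receptor, were followed through 9 single-nucleus RNA-seq libraries of mouse cortex and hippocampus. These 6 genes of the 31053 in the count matrices were chosen by name, with earlier results of the same data known. The set was put together to ask whether Mertk counts in neurons and oligodendrocytes move with RNA of glial cells. The level of Mertk in those classes, and its difference between groups there, is therefore given as a description, with no test. Each library came from 1 wild-type mouse, and each of 3 groups held 3 mice. The paper describes all mice as male C57BL/6. Aged mice came from the National Institute on Aging colony and young mice from Jackson Laboratories. Age and supplier therefore cannot be told apart, and changes called with age are also changes between suppliers. Young AAV-EGFP and aged AAV-EGFP mice had received a viral vector that encodes the green fluorescent protein EGFP, and aged AAV-B3GNT3 mice a vector that encodes EGFP with the glycosyltransferase B3GNT3. All 9 mice carried AAV-PHP.V1 given into the retro-orbital sinus 8 weeks before the tissue was taken, with expression driven by an endothelial promoter (sCLDN5), so no group was free of virus. Cortex and hippocampus of a mouse were pooled, so the regions cannot be told apart.

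MERTK, AXL and TYRO3 form a family of receptor tyrosine kinases. Its soluble ligands are GAS6 and protein S, the product of Pros1, though not every receptor takes both. Both ligands recognize phosphatidylserine, a lipid that moves to the outer face of the membrane of dying cells and of synapses, and so bridge such material to phagocytes. In the brain MERTK is best known from microglia and astrocytes, where it takes part in the clearance of debris and synapses, whereas TYRO3 is the TAM receptor associated with neurons and myelin. MEGF10 works beside MERTK in engulfment by astrocytes. Nuclei carry mostly young, unspliced RNA, and libraries of nuclei also hold free RNA, released from broken cells, that is counted in nuclei that do not express the gene.

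The libraries held 47332047 to 79964605 UMIs (unique molecular identifiers, counts of RNA molecules), and 5758 to 9279 nuclei of each passed the filters, with a median of 3038.5 to 5302.5 UMIs per nucleus. Clusters were named from marker genes, with the 6 genes left out of the clustering, and 65986 of 70264 nuclei fell into 9 classes that are like astrocytes, microglia, oligodendrocytes, oligodendrocyte precursors, excitatory and inhibitory neurons, brain endothelial cells, pericytes and fibroblasts. The 4278 other nuclei stayed unnamed, 3695 of them in 1 cluster with transmitter genes of both neuron types and the rest in clusters with markers of 2 classes. The fibroblast class is mixed. Astrocyte markers in it summed to 31.8 ± 5.03% of their level in astrocytes, and at a finer clustering 1195 of its 1895 nuclei fell into a cluster that stayed unnamed, with markers of fibroblasts and astrocytes, while 603 stayed fibroblasts and 97 joined a choroid plexus class. The oligodendrocyte precursor cluster also passed the marker rule for 5 of 6 oligodendrocyte markers. Pairs of libraries shared 7 to 37 cell barcodes. Levels are given in CPM, the UMIs of the gene divided by all UMIs of the class in that library and multiplied by 1e+06. All 6 genes are protein coding, and on GRCm38 they lie at chr2:128698956-128802894 (Mertk, plus strand), chr7:25757273-25788705 (Axl, minus), chr2:119797733-119818104 (Tyro3, plus), chr8:13465374-13494490 (Gas6, minus), chr16:62854307-62929346 (Pros1, plus) and chr18:57133090-57297467 (Megf10, plus). Mertk overlaps the antisense gene Gm14011 and the small nucleolar RNA gene Gm23172, and Gas6 overlaps Tmem255b on the other strand.

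Mertk was highest in astrocytes, at 1856 ± 484 CPM (SD, n = 9 libraries), and in microglia, at 1771 ± 177 CPM. These values overlapped, and astrocytes were above microglia in 5 of 9 libraries. Without overlap with these, oligodendrocyte precursors followed at 388 ± 176 CPM, and then pericytes at 235 ± 64.7 CPM, brain endothelial cells at 201 ± 67.4 CPM and fibroblasts at 127 ± 34.4 CPM, each of the 4 overlapping its neighbour. Below a gap stood oligodendrocytes (23.9 ± 14.2 CPM), inhibitory neurons (12.7 ± 3.07 CPM) and excitatory neurons (6.71 ± 2.56 CPM). Of the 68160 Mertk UMIs in all nuclei kept, 71.3% lay in astrocytes, 10.3% in microglia and 7.22% in oligodendrocyte precursors, whereas excitatory neurons, inhibitory neurons and oligodendrocytes, the largest classes by nuclei apart from astrocytes, held 2.23%, 1.36% and 1.62%.

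Axl was led by pericytes, at 95.3 ± 20.9 CPM, above astrocytes (50.02 ± 7.78 CPM) in 9 of 9 libraries. Fibroblasts stood at 43.2 ± 14.6 CPM, and microglia at 18.8 ± 10.1 CPM on only 3 to 15 UMIs a library. In neurons Axl was at or near the limit of counting, with 80 UMIs in 20619 excitatory and 44 UMIs in 8129 inhibitory nuclei. Tyro3 was highest in oligodendrocytes (55.6 ± 15.05 CPM) and in excitatory neurons (35.9 ± 7.29 CPM), and the former exceeded the latter in 9 of 9 libraries although the ranges overlapped. Excitatory neurons lay above inhibitory neurons (17.2 ± 3.81 CPM) with no overlap, and 62.2% of the 13256 Tyro3 UMIs were in excitatory neurons, which carry the most RNA. The 6 other classes had means between 8.59 and 15.9 CPM and overlapped one another.

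**Figure D1:**
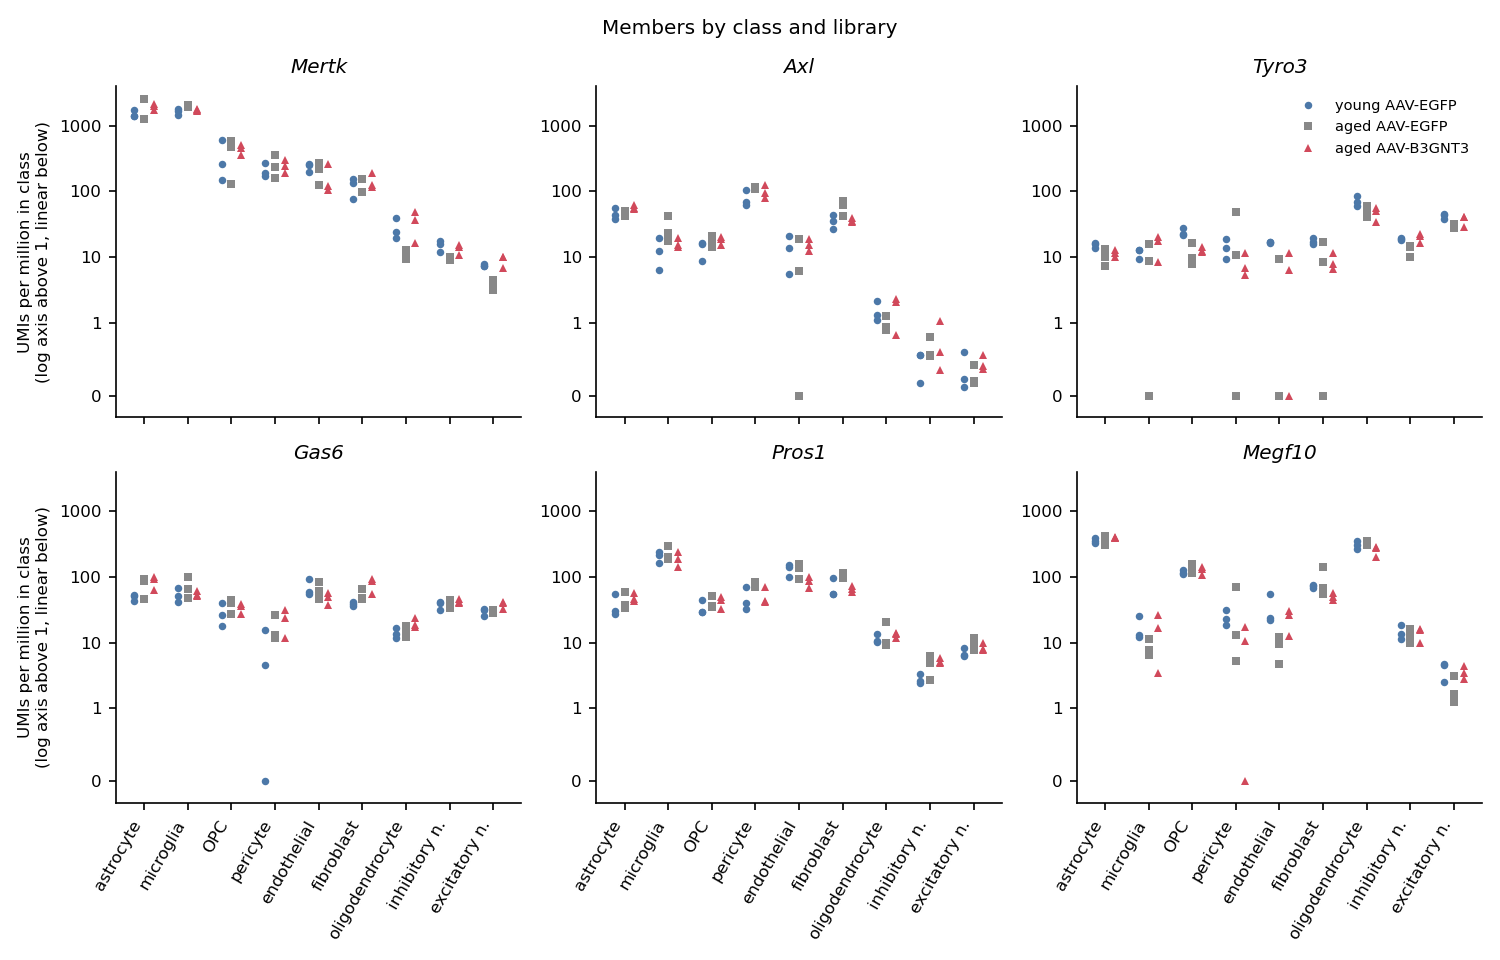
Level of each of the 6 genes (vertical axis, CPM, logarithmic above 1 and linear below) in 9 classes; each point is 1 library, with circles for young AAV-EGFP, squares for aged AAV-EGFP and triangles for aged AAV-B3GNT3. Mertk spans from 1856 CPM in astrocytes to 6.71 CPM in excitatory neurons, while Tyro3 is highest in oligodendrocytes and excitatory neurons.

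The ligand genes were spread more evenly. Gas6 had means of 69.9 ± 23.2 CPM in astrocytes, 60.3 ± 17.8 CPM in brain endothelial cells, 60.002 ± 17.04 CPM in microglia and 56.8 ± 20.7 CPM in fibroblasts, and these classes overlapped. Inhibitory and excitatory neurons stood at 40.1 ± 4.60 CPM and 32.5 ± 5.24 CPM, and together with their large share of the RNA they held 19.7% and 48.5% of the 15358 Gas6 UMIs. At the finer clustering Gas6 had 128 ± 49.9 CPM in the choroid plexus class. The nuclei of that class were shallow, with a median of 0.161 times the median UMIs of their library, and held transporter and enzyme genes of glutamatergic (122 CPM) and GABAergic neurons (66.8 CPM). The part of free RNA in its Gas6 was not tested. Pros1 was highest in microglia, at 208 ± 45.5 CPM, above brain endothelial cells (115 ± 32.4 CPM) in 9 of 9 libraries. Fibroblasts (80.4 ± 23.8 CPM) and pericytes (58.8 ± 19.4 CPM) came next, and neurons were lowest, at 8.40 ± 1.65 CPM in excitatory and 4.21 ± 1.47 CPM in inhibitory cells.

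Megf10 was highest in astrocytes (379 ± 38.2 CPM) and oligodendrocytes (298 ± 47.4 CPM), which overlapped, and then fell to 125 ± 16.2 CPM in oligodendrocyte precursors. Oligodendrocytes held 47.1% and astrocytes 35.8% of its 28459 UMIs. Inhibitory neurons averaged only 13.7 ± 3.07 CPM, but the counts were concentrated in few nuclei. In that class 100 of 8129 nuclei had 3 or more Megf10 UMIs and carried 586 of 1032 UMIs, and each library held 6 to 17 of these nuclei. At the finer clustering 93 of them fell into 1 cluster of 1941 nuclei led by Adarb2, Frem1 and Vip, genes of interneurons from the caudal ganglionic eminence, where Megf10 stood at 45.5 ± 7.95 CPM. Of 14 interneuron genes compared, Cnr1, the cannabinoid receptor gene, was seen in 97% of the nuclei with 3 or more Megf10 UMIs and in 49.3% of those with none, Htr3a, a serotonin receptor gene, in 31% and 1.73%, Npy in 29% and 12.4%, Vip in 14% and 9.94% and Reln in 66% and 60.7%. The 9 others were less frequent there, such as Sv2c (3% and 44.4%), Meis2 (11% and 53.5%), Lamp5 (5% and 16.2%) and Ndnf (1% and 5.10%). The nuclei with none include most of a finer cluster of 3509 nuclei led by Meis2, with Rgs9 and Drd2 among its leading genes. The comparison is thus also one between kinds of inhibitory neuron. The nuclei with 3 or more were deeper, at a median of 11537 against 8531.5 UMIs. They carried 0.230 against 0.279 UMIs of astrocyte markers, 3.30 against 1.65 of oligodendrocyte markers and 0.380 against 0.238 of microglia markers per nucleus, and the part of these in their Megf10 was not tested. In excitatory neurons 13 nuclei with 3 or more Megf10 UMIs carried 30.1 UMIs of oligodendrocyte markers each, against 2.07 in nuclei with none.

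In excitatory neurons Mertk was lower in the aged AAV-EGFP mice than in either other group. The young AAV-EGFP libraries had 7.34, 7.28 and 7.86 CPM, the aged AAV-EGFP libraries 3.41, 4.51 and 3.18 CPM, and the aged AAV-B3GNT3 libraries 10.0, 10.1 and 6.73 CPM, on 79 to 222 UMIs each. The aged AAV-EGFP values did not overlap those of either other group. The log2 fold change was -1.03 (SE 0.21) for aged against young AAV-EGFP and 1.11 (SE 0.21) for aged AAV-B3GNT3 against aged AAV-EGFP, contrasts that share the aged AAV-EGFP libraries, and 0.08 (SE 0.20) for aged AAV-B3GNT3 against young AAV-EGFP.

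In inhibitory neurons and oligodendrocytes the aged AAV-EGFP libraries were again lowest. In inhibitory neurons the young libraries had 15.65, 11.95 and 17.5 CPM, the aged AAV-EGFP libraries 9.56, 10.0 and 9.09 CPM, and the aged AAV-B3GNT3 libraries 14.2, 15.2 and 10.7 CPM. The fold changes were smaller than in excitatory neurons, at -0.63 (SE 0.19) with age and 0.34 (SE 0.19) with AAV-B3GNT3 on the log2 scale. Oligodendrocytes had 39.1, 24.3 and 19.5 CPM of Mertk in young, 9.20, 12.6 and 9.82 CPM in aged AAV-EGFP and 36.2, 48.3 and 16.1 CPM in aged AAV-B3GNT3 libraries. Here the log2 fold changes were -1.39 (SE 0.37) and 1.55 (SE 0.37), and aged AAV-B3GNT3 replicate 3 lay below the young libraries and above the aged AAV-EGFP ones. Aged AAV-EGFP libraries were the lowest 3 of 9 in all 3 classes.

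Astrocytes and microglia, the classes that hold most Mertk, did not share this. Astrocytes had 1385, 1410 and 1715 CPM in young, 1238, 2528 and 2552 CPM in aged AAV-EGFP and 2146, 1745 and 1980 CPM in aged AAV-B3GNT3 libraries. Microglia had 1429, 1682 and 1766 CPM, then 1933, 2051 and 1889 CPM, then 1723, 1693 and 1776 CPM. In microglia every aged AAV-EGFP library was above every library of the other groups, the reverse of the order in neurons.

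**Figure D2:**
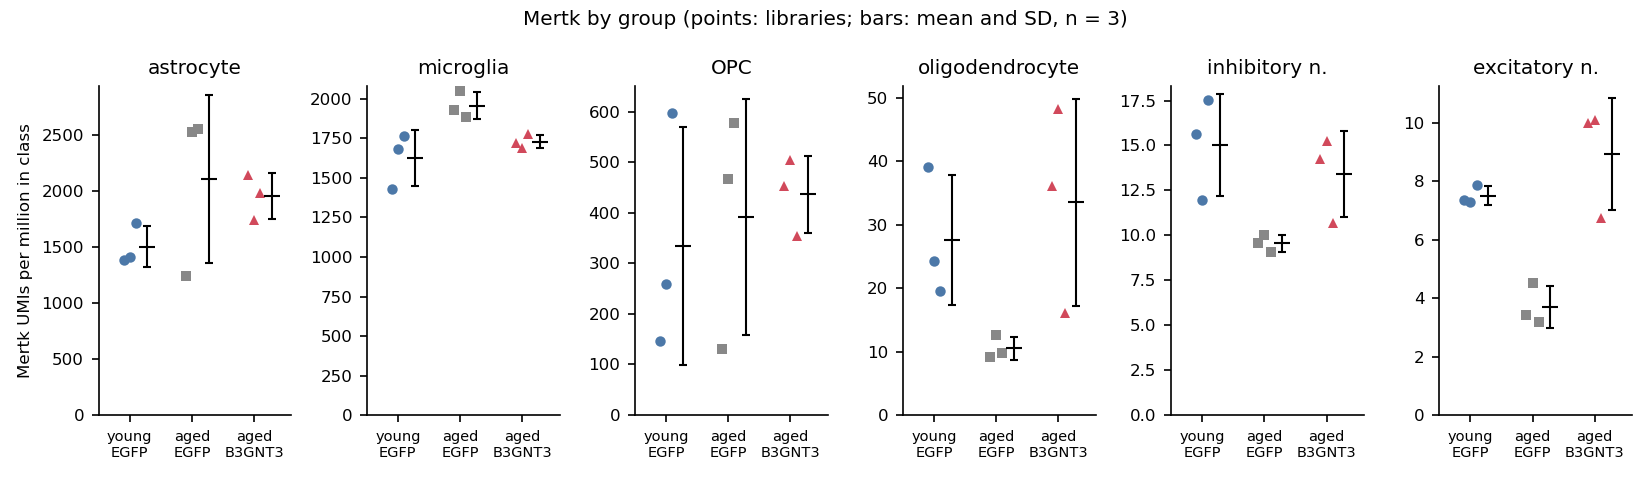
Mertk level (vertical axis, CPM, each panel with its own linear axis from 0) in 6 classes by group; points are libraries, and the bar beside them gives the mean and SD of 3. The aged AAV-EGFP libraries are the lowest 3 in oligodendrocytes, inhibitory neurons and excitatory neurons (3.18 to 4.51 CPM in the last) and the highest 3 in microglia.

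Glial marker genes were then read inside the same classes, using 7 genes of astrocytes (Slc1a3, Aqp4, Gja1, Slc7a10, Fgfr3, Aldh1l1 and Slc39a12) and 7 of microglia (among them Csf1r, Inpp5d, Ctss, Siglech, Tmem119 and Ly86). In excitatory neurons the summed astrocyte markers ran from 31.0 to 43.8 CPM in young, 18.2 to 23.7 CPM in aged AAV-EGFP and 27.7 to 49.2 CPM in aged AAV-B3GNT3 libraries, again with the aged AAV-EGFP libraries lowest. With age 7 of 7 astrocyte markers were lower there, with a median log2 fold change of -0.72. Of these, 3 passed the test (Aqp4 -1.44, Gja1 -1.15 and Slc1a3 -0.92), in a class where 14.1% of genes passed with age. With AAV-B3GNT3 6 of 7 were higher, with a median of 0.65, and none passed. The microglia markers did not share this order. Their sum ran from 15.8 to 18.0, 19.4 to 20.1 and 20.6 to 22.8 CPM in the 3 groups, 5 of 6 tested markers were higher with age, and Tmem119 had too few counts for a test.

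In inhibitory neurons 6 of 7 astrocyte markers were lower with age and 7 of 7 higher with AAV-B3GNT3, with medians of -0.99 and 0.96, and 2 passed, both lower with age (Slc1a3 -0.99 and Slc7a10 -1.45). Over all 9 classes 9.68% of gene and class tests passed with age. In oligodendrocytes 5 of 7 were lower with age and 6 of 7 higher with AAV-B3GNT3, but the summed level overlapped between the groups, at 132 to 288, 158 to 265 and 237 to 288 CPM, and the other two were higher with age. Here Gja1 (-1.08) and Slc39a12 (-1.91) passed as lower and Aldh1l1 (0.995) as higher with age, and Slc39a12 passed as higher with AAV-B3GNT3 (1.58). In this class 21.6% of genes passed with age and 8.00% with AAV-B3GNT3. Of the microglia markers tested in inhibitory neurons, 3 of 6 were higher with age and 2 of 6 with AAV-B3GNT3, and none passed. In oligodendrocytes 2 of 4 were higher with age, 1 of them past the threshold. With AAV-B3GNT3 3 of 4 were higher there, and none passed. The makeup of the libraries differed as well. Astrocytes made up 13.3 to 16.6% of nuclei in young, 8.42 to 9.09% in aged AAV-EGFP and 7.48 to 15.3% in aged AAV-B3GNT3 libraries. The part of these shares in the level of Mertk in neurons was not tested.

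**Figure D3:**
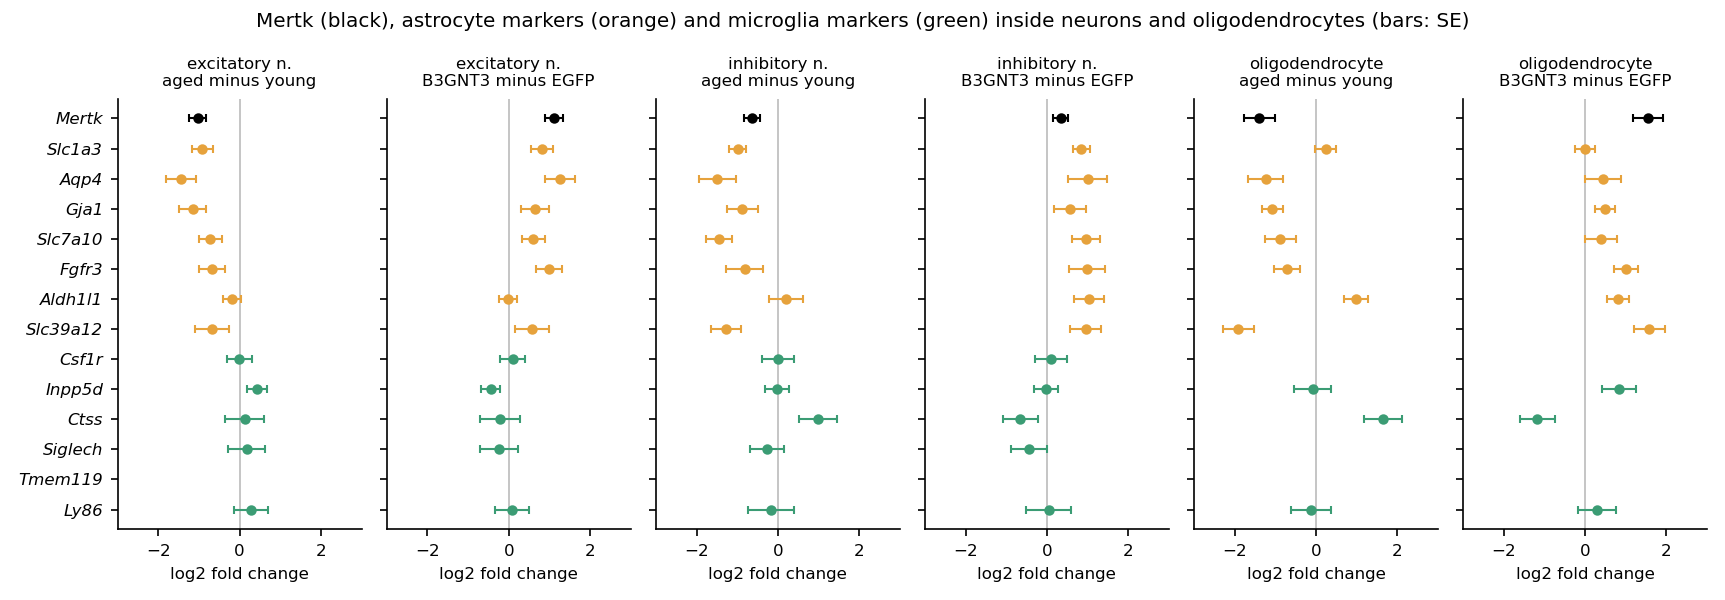
Log2 fold changes (horizontal axes) of Mertk and of 7 astrocyte and 6 microglia marker genes inside excitatory neurons, inhibitory neurons and oligodendrocytes, for aged minus young AAV-EGFP and for aged AAV-B3GNT3 minus aged AAV-EGFP; bars are SE, and genes with no point had too few counts. In excitatory neurons Mertk (-1.03 with age) lies within the range of the astrocyte markers (-1.44 to -0.20), while the microglia markers lie between -0.01 and 0.43.

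Across the 9 libraries, Pearson's r between Mertk in excitatory neurons and the summed astrocyte markers of the same nuclei was 0.834, and Spearman's rank correlation 0.917. Without the 2 libraries farthest from the median of the markers, r was 0.943 over 7 libraries. With the astrocyte markers r was 0.651 in inhibitory neurons and 0.596 in oligodendrocytes, and the rank correlation 0.683 and 0.600. With the microglia markers r was 0.107 in excitatory neurons, 0.133 in inhibitory neurons and 0.384 in oligodendrocytes, with rank correlations of 0.1, 0.0167 and 0.1. Both quantities come from the same nuclei and share their depth, and Mertk was chosen with its group difference known, so these values describe the groups and carry no p. Within groups, as deviations from the group means, none of the 6 relations passed an exact permutation test. The shared nuclei and depth hold here too, and 3 libraries a group give the test little power. It therefore cannot decide whether Mertk moves with the markers within groups. With the astrocyte markers r was 0.600 in excitatory neurons (permutation p = 0.421, adjusted p = 0.632), 0.154 in inhibitory neurons (permutation p = 0.806, adjusted p = 0.967) and 0.624 in oligodendrocytes (permutation p = 0.0278, adjusted p = 0.0833). With the microglia markers it was 0.000243 in excitatory neurons, 0.553 in inhibitory neurons (permutation p = 0.120, adjusted p = 0.241) and 0.606 in oligodendrocytes (permutation p = 0.0185, adjusted p = 0.0833).

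**Figure D4:**
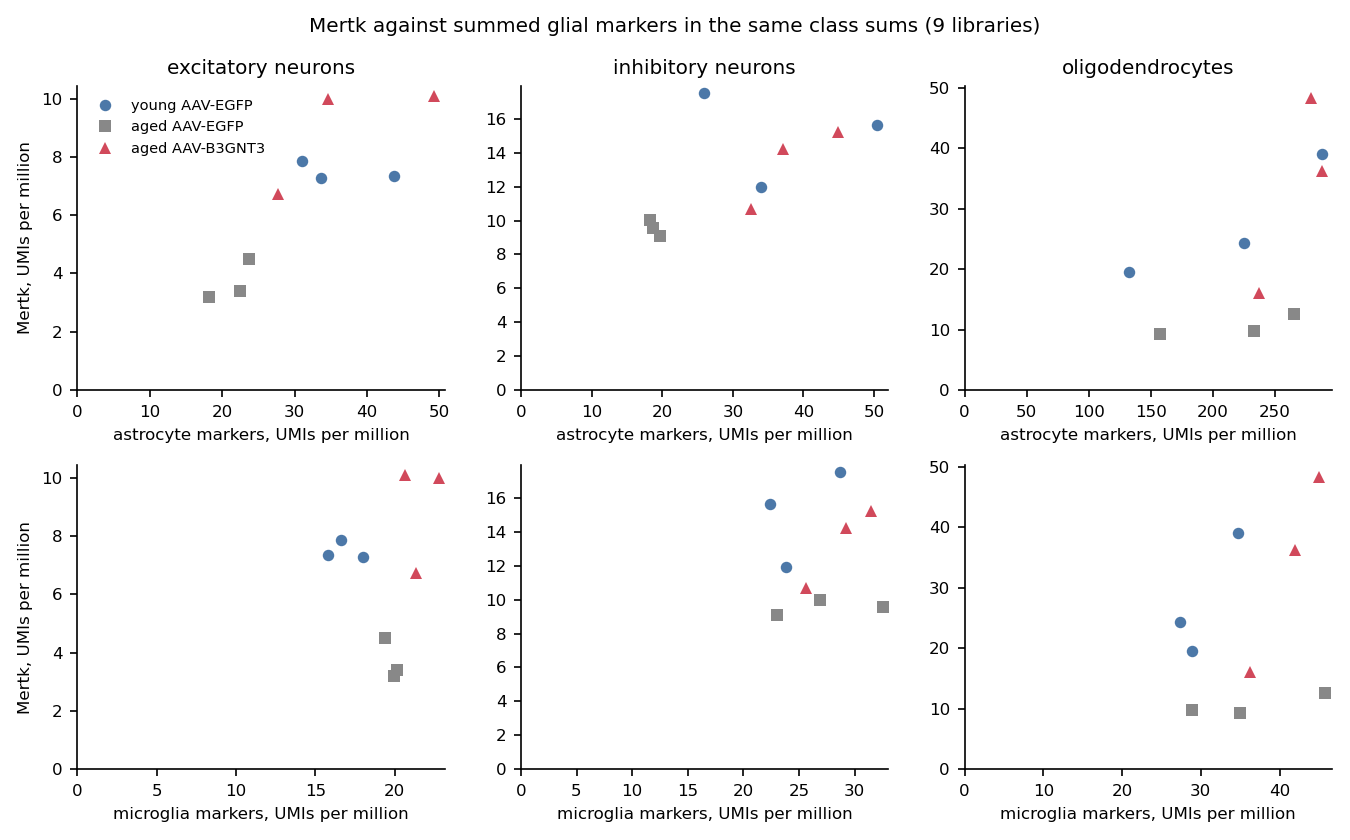
Mertk (vertical axes, CPM) against the summed astrocyte markers (upper row) and microglia markers (lower row, CPM) in the same class; each point is 1 library of 9, with symbols for the groups. In excitatory neurons the 3 aged AAV-EGFP libraries have the lowest Mertk and the lowest astrocyte markers (18.2 to 23.7 CPM), whereas their microglia markers (19.4 to 20.1 CPM) lie between those of the other groups.

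Mertk in these classes was next set beside the glial markers as a share of the level in glia. As a percent of the astrocyte level in the same library, Mertk was at 0.385 ± 0.163% in excitatory neurons, 0.734 ± 0.268% in inhibitory neurons and 1.40 ± 0.921% in oligodendrocytes. The sum of astrocyte markers stood at 0.717 ± 0.2799%, 0.710 ± 0.307% and 5.15 ± 1.27% in those classes, and the sum of microglia markers, as a percent of their level in microglia, at 0.338 ± 0.0408%, 0.473 ± 0.0753% and 0.624 ± 0.109%. Relative to its level in microglia Mertk stood at 0.390 ± 0.167%, 0.732 ± 0.233% and 1.42 ± 0.934%. As a percent Mertk thus lay below the astrocyte markers in excitatory neurons and oligodendrocytes, with no overlap of mean and SD in the latter, and about level with them in inhibitory neurons. Its mean was above that of the microglia markers in inhibitory neurons and oligodendrocytes, but mean and SD overlapped in both. The ratio of Mertk to the microglia marker sum, which was 0.308 ± 0.0347 in microglia, ran from 0.294 to 0.698 in inhibitory neurons and from 0.263 to 1.13 in oligodendrocytes, so Mertk was not above those markers in every library. The ratio of Mertk to the astrocyte marker sum was 0.401 ± 0.0564 in astrocytes, 0.435 ± 0.124 in inhibitory neurons, 0.210 ± 0.0448 in excitatory neurons and 0.101 ± 0.0481 in oligodendrocytes. It was 1.65 ± 0.837 in pericytes, 0.978 ± 0.582 in oligodendrocyte precursors, 0.778 ± 0.222 in brain endothelial cells and 0.0927 ± 0.0406 in fibroblasts. In relation to these markers Mertk was thus lower in excitatory neurons, oligodendrocytes and fibroblasts than in astrocytes, and higher on average in precursors, pericytes and brain endothelial cells.

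Free RNA was also estimated from the profile of all deposited barcodes of a library, none of which had under 200 genes. That profile is the summed RNA of nuclei and not a measure of empty droplets. The estimate came from scaling it by markers of other classes. This put 13.2 to 16.2% of the excitatory neuron UMIs of young, 7.96 to 10.4% of aged AAV-EGFP and 11.1 to 13.8% of aged AAV-B3GNT3 libraries down to free RNA. In inhibitory neurons the shares were 13.5 to 18.6%, 8.65 to 12.97% and 11.2 to 12.4%, so the aged groups overlapped, and in oligodendrocytes all 3 groups overlapped, at 28.1 to 38.5%, 26.2 to 35.9% and 33.1 to 36.1%. For Mertk the estimate exceeded the observed level in 9 of 9 libraries, with a median of 275% of it in excitatory neurons, 146% in inhibitory neurons and 212% in oligodendrocytes. The estimate is thus too high for Mertk, and nothing was left to fit after its subtraction. In astrocytes it made up 2.05% and in microglia 3.98% of Mertk.

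Among neurons a small number of nuclei carried several Mertk UMIs together with microglia markers. In excitatory neurons 53 nuclei had 3 or more and held 238 of 1518 Mertk UMIs, and 73.6% of them had a microglia marker UMI, against 16.2% of nuclei without Mertk. Their mean was 7.06 microglia marker UMIs per nucleus against 0.190, and 1.66 against 0.340 for astrocyte markers. In inhibitory neurons 58 such nuclei held 290 of 924 Mertk UMIs and had 8.55 microglia marker UMIs each, against 0.165 (79.3% and 13.8% of nuclei with any). They were deeper, with medians of 14547 against 10506.5 UMIs in excitatory and 11660 against 8519.5 in inhibitory neurons. The nuclei with 1 or 2 Mertk UMIs, which held most of the counts, had 0.474 astrocyte and 0.369 microglia marker UMIs in excitatory neurons. Oligodendrocytes had only 6 nuclei with 3 or more.

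Without those nuclei, which were chosen by their own Mertk count and after the values were seen, mean Mertk in excitatory neurons was 6.45 ± 0.690 CPM in young, 2.54 ± 0.625 CPM in aged AAV-EGFP and 8.30 ± 2.39 CPM in aged AAV-B3GNT3 libraries (SD, n = 3), and in inhibitory neurons 10.2 ± 2.52, 5.93 ± 1.70 and 10.03 ± 3.02 CPM. In inhibitory neurons the aged groups then overlapped, with up to 7.26 CPM in aged AAV-EGFP and down to 6.62 CPM in aged AAV-B3GNT3 libraries. A second subset was the nuclei with no UMI of either glial list (for astrocytes and microglia, with no UMI of the other one's list). In these the log2 fold changes of Mertk with age were -1.21, -0.94 and -1.52 in excitatory neurons, inhibitory neurons and oligodendrocytes, and those with AAV-B3GNT3 were 1.61, 0.65 and 1.83. The level of Mertk was 0.316%, 0.477% and 1.40% of that in all astrocytes, which were not filtered for this percent. Mertk was thus also lower in aged AAV-EGFP mice among nuclei in which both glial lists were at 0. A nucleus with no UMI of 14 markers can still hold free RNA, and the part of free RNA in the difference was not tested further.

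Outside those 3 classes, Mertk did not pass the test in any class. The tests were made with edgeR's quasi-likelihood test on summed counts, with Benjamini-Hochberg adjustment over all genes of a class. In astrocytes the log2 fold change with age was 0.46 (SE 0.22, adjusted p = 0.188) and with AAV-B3GNT3 -0.23 (SE 0.22, adjusted p = 0.588), and in microglia 0.24 (SE 0.14, adjusted p = 0.320) and -0.19 (SE 0.14, adjusted p = 0.554). The astrocyte value turned on 1 library. Without aged AAV-EGFP replicate 1, whose astrocytes had 1238 CPM against 2528 and 2552 CPM in the other two, the change with age was 0.75 (adjusted p = 0.0055). In oligodendrocyte precursors Mertk varied too much within groups to compare, from 146 to 598 CPM among young and from 131 to 579 CPM among aged AAV-EGFP libraries. Precursors with 3 or more Mertk UMIs also carried more microglia markers (1.09 per nucleus) than those with none (0.112).

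Over the 6 genes and 9 classes, 40 of the 51 tests left after Mertk in neurons and oligodendrocytes was set aside had enough counts. With age 1 of the 40 passed, whereas 9.68% of all 94853 gene and class tests did. An unadjusted p under 0.05 was found for 12 of the 40, against 26.3% of all tests. With AAV-B3GNT3 none passed in edgeR or DESeq2, where the backgrounds were 2.70% and 4.75%, and 6 had an unadjusted p under 0.05, against 19.2% of all tests. In aged AAV-B3GNT3 against young AAV-EGFP mice none passed in edgeR, where the background was 1.46%, 1 of 42 passed in DESeq2, where it was 2.33%, and 10 had an unadjusted p under 0.05, against 14.9% of all tests. Without aged AAV-EGFP replicate 1 the counts were 6 with age, where the background was 15.7%, and 3 in the last comparison, where it was 2.88%. In the reported fit of all 9 libraries the share of the edgeR tests that passed was below the background in each comparison. With no filter on low counts it was above the background with age (11.8%) and in the last comparison (5.88%). With the replicate block it was above it in the last comparison only (4.65%). In the reported fit the share with an unadjusted p under 0.05 was above the background with age and in the last comparison, and below it with AAV-B3GNT3. Counts this small do not set the 6 genes apart from other genes.

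**Figure D5:**
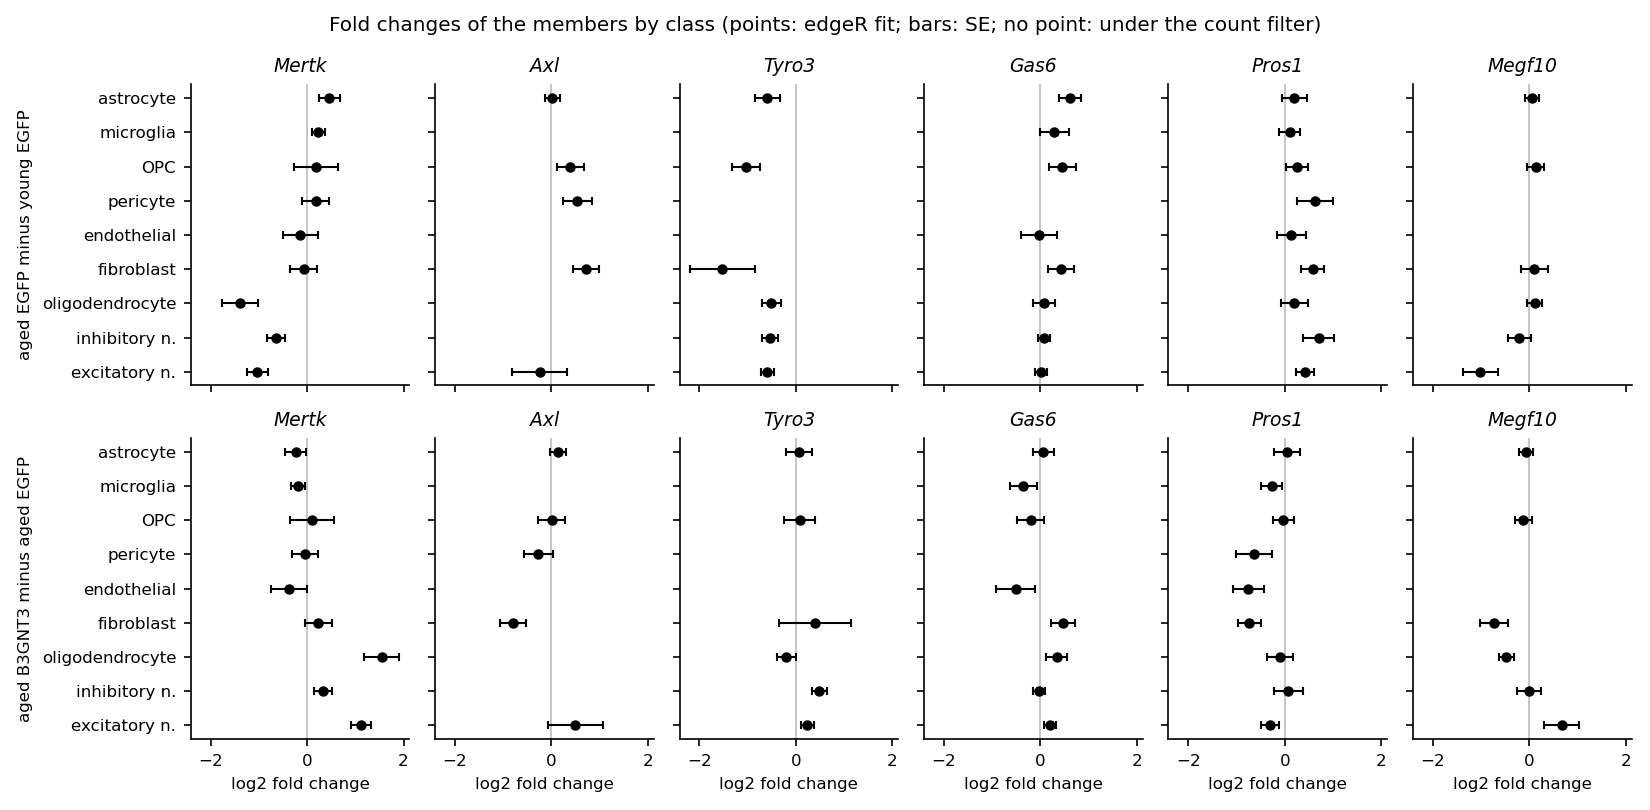
Log2 fold change (horizontal axes) of the 6 genes in each class, for aged minus young AAV-EGFP (upper row) and aged AAV-B3GNT3 minus aged AAV-EGFP (lower row); points are edgeR estimates, bars are SE, and classes with no point had too few counts. Tyro3 lies below 0 in 6 of 6 classes with age (-0.52 to -1.53), and Pros1 above 0 in 9 of 9 (0.10 to 0.70), of which 4 turned with 1 library left out. How many other genes had the same sign in every class tested was not counted.

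Tyro3, the neuronal and myelin TAM receptor gene, was the only member past the threshold. In excitatory neurons it fell with age, from 45.4, 37.2 and 44.0 CPM in young to 27.6, 27.2 and 31.3 CPM in aged AAV-EGFP libraries, without overlap. The log2 fold change was -0.60 (SE 0.13, adjusted p = 0.0163) in a class where 14.1% of genes passed. The call was lost without aged AAV-EGFP replicate 2 (adjusted p = 0.0602), aged AAV-EGFP replicate 3 (0.0533) or young AAV-EGFP replicate 3 (0.0731), while the fold change stayed between -0.56 and -0.66. Aged AAV-B3GNT3 libraries had 40.6, 41.2 and 28.9 CPM, of which the last lay within the aged AAV-EGFP range, and the change against aged AAV-EGFP was 0.24 (SE 0.13, adjusted p = 0.306). Without aged AAV-B3GNT3 replicate 3 the change was 0.39 (adjusted p = 0.0473).

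In the 5 other classes tested, the estimate for Tyro3 with age was also below 0, from -0.52 in oligodendrocytes to -1.53 in fibroblasts, and none passed. How many of all genes had estimates of the same sign in every class tested was not counted. The fibroblast value rests on 7 Tyro3 UMIs in the 3 aged AAV-EGFP libraries, 1 of them at 0, and was -2.40 without aged AAV-EGFP replicate 1 and -0.53 without replicate 3 of that group. Without aged AAV-EGFP replicate 1 Tyro3 passed in oligodendrocytes (-0.65, adjusted p = 0.035) and in oligodendrocyte precursors (-1.42, adjusted p = 0.00844). The precursor class also carried oligodendrocyte markers. At the finer clustering it went from 299 to 242 nuclei in aged AAV-EGFP replicate 1 and from 483 to 360 in young AAV-EGFP replicate 2. The part of oligodendrocyte RNA in its Tyro3 was not tested. Oligodendrocytes had 85.3, 67.6 and 59.9 CPM in young, 58.8, 49.6 and 40.2 CPM in aged AAV-EGFP and 54.6, 50.03 and 34.3 CPM in aged AAV-B3GNT3 libraries, so aged mice of either vector lay below the young (-0.52, SE 0.20, adjusted p = 0.0789, and -0.72, SE 0.20, adjusted p = 0.0951, against young). Without aged AAV-EGFP replicate 1 the second also passed (-0.72, adjusted p = 0.0499). Inhibitory neurons had 18.4, 19.1 and 18.4, then 14.1, 9.91 and 14.8, then 22.4, 20.9 and 16.5 CPM, with a change of -0.55 (SE 0.17, adjusted p = 0.0734) with age and 0.49 (SE 0.16, adjusted p = 0.153) with AAV-B3GNT3. Markers of excitatory neurons counted in astrocytes fell alongside, from 266 to 311 CPM in young to 114 to 241 CPM in aged AAV-EGFP libraries. In astrocytes the change of Tyro3 with age ran from -0.88 to -0.31 with a library left out. Free RNA was estimated at a median of 55.1% of Tyro3 there, and after its subtraction the astrocyte change was 0.06. The astrocyte estimate is scaled in part by those same neuron markers, so it cannot decide what part free RNA has. In excitatory neurons the median was 11.1%, and the change after subtraction was -0.64 (adjusted p = 0.0166). The median was 78.9% in fibroblasts, 38.7% in oligodendrocyte precursors, 23.2% in inhibitory neurons and 17.7% in oligodendrocytes. The part of free RNA in the falls in these classes and in astrocytes was not tested.

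Axl did not pass in any of the 5 classes with enough counts. In fibroblasts it had 34.8, 43.8 and 26.4 CPM in young, 42.5, 61.4 and 72.1 CPM in aged AAV-EGFP and 38.6, 34.0 and 34.7 CPM in aged AAV-B3GNT3 libraries. The aged AAV-EGFP libraries lay above those with AAV-B3GNT3 without overlap (-0.79, SE 0.27, adjusted p = 0.160) and overlapped the young (0.72, SE 0.27, adjusted p = 0.143). Astrocyte markers in fibroblasts were likewise highest in aged AAV-EGFP libraries, at 1556 to 2033 CPM against 1172 to 1364 CPM in young and 1056 to 1416 CPM in aged AAV-B3GNT3 libraries, and their part in this difference was not tested. In the nuclei that stayed fibroblasts at the finer clustering Axl was lower, with means of 12.3 ± 2.81, 29.7 ± 17.1 and 20.5 ± 5.83 CPM in the 3 groups on 2 to 8 UMIs a library, too few for a test. Pericytes, the class with the most Axl, gave 0.54 (SE 0.31, adjusted p = 0.308) with age and -0.27 (SE 0.30, adjusted p = 0.709) with AAV-B3GNT3.

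Of the ligands, Gas6 in astrocytes had 52.4, 43.1 and 50.5 CPM in young, 46.1, 87.3 and 92.7 CPM in aged AAV-EGFP and 99.3, 94.5 and 63.5 CPM in aged AAV-B3GNT3 libraries. The change with age was 0.62 (SE 0.23, adjusted p = 0.0868), and without aged AAV-EGFP replicate 1, the lowest of its group for Mertk too, it was 0.89 (adjusted p = 0.00427). Aged AAV-B3GNT3 libraries were all above the young ones (0.68, SE 0.22, adjusted p = 0.115), a change that passed without aged AAV-EGFP replicate 1 (0.71, adjusted p = 0.0198), and the change against aged AAV-EGFP was 0.06 (SE 0.22, adjusted p = 0.915). In fibroblasts Gas6 stood at 36.0, 39.3 and 41.7 CPM in young and 87.1, 55.2 and 92.4 CPM in aged AAV-B3GNT3 libraries, without overlap (0.89, SE 0.24, adjusted p = 0.0739), and this change passed without aged AAV-B3GNT3 replicate 2 (1.12, adjusted p = 0.0195) or aged AAV-EGFP replicate 1 (0.93, adjusted p = 0.0452). In the nuclei that stayed fibroblasts at the finer clustering Gas6 overlapped between these groups, at 11.2 to 37.3 and 16.9 to 27.1 CPM on 3 to 12 UMIs a library, and could not be tested.

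Pros1 had estimates above 0 with age in 9 of 9 classes, from 0.10 in microglia to 0.70 in inhibitory neurons, and none passed. The sign turned in 4 of the 9 with 1 library left out. Without aged AAV-EGFP replicate 1 the values were -0.13 in microglia and -0.24 in oligodendrocytes, and without young AAV-EGFP replicate 3 the microglia value was -0.053. Without aged AAV-EGFP replicate 3 or young AAV-EGFP replicate 1 they were -0.022 and -0.014 in astrocytes and -0.018 and -0.067 in brain endothelial cells. The inhibitory neuron value was 0.44 without aged AAV-EGFP replicate 1. In microglia, where it was highest, it had 217, 238 and 161 CPM in young, 292, 187 and 203 CPM in aged AAV-EGFP and 239, 190 and 141 CPM in aged AAV-B3GNT3 libraries, so the groups overlapped. In fibroblasts the aged AAV-EGFP libraries (106, 97.8 and 116 CPM) were above the young (55.1, 55.1 and 97.4 CPM) and above those with AAV-B3GNT3 (71.7, 59.8 and 65.0 CPM), with changes of 0.58 (SE 0.24, adjusted p = 0.188) and -0.73 (SE 0.24, adjusted p = 0.150). The first passed without young AAV-EGFP replicate 3 (0.92, adjusted p = 0.0487), and the second turned to 0.31 at the finer clustering, where Pros1 had means of 31.4 ± 11.1, 41.8 ± 19.5 and 56.6 ± 8.76 CPM in the 3 groups. The astrocyte markers in fibroblasts given above for Axl had the same highest group, and their part in Pros1 was not tested either. In brain endothelial cells, the class that the vector's promoter addresses, Pros1 had 99.5, 151 and 142 CPM, then 94.1, 136 and 159 CPM, then 85.4, 98.5 and 68.7 CPM on 10 to 36 UMIs a library, and the change with AAV-B3GNT3 was -0.75 (SE 0.32, adjusted p = 0.403).

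Megf10 in astrocytes hardly differed between the groups, with 350, 333 and 398 CPM in young, 311, 403 and 424 CPM in aged AAV-EGFP and 401, 397 and 395 CPM in aged AAV-B3GNT3 libraries. The changes were 0.05 (SE 0.14, adjusted p = 0.852) and -0.06 (SE 0.14, adjusted p = 0.860). In oligodendrocytes aged AAV-B3GNT3 libraries (278, 203 and 287 CPM) lay below aged AAV-EGFP libraries (351, 337 and 304 CPM) without overlap, and the change of -0.47 (SE 0.15, adjusted p = 0.0771) did not pass. In excitatory neurons Megf10 was at 1.25 to 4.76 CPM with a change of -1.01 with age (SE 0.36, adjusted p = 0.0754), which passed without aged AAV-EGFP replicate 1 (-1.46, adjusted p = 0.0137). The estimate of free RNA exceeded the observed Megf10 there in 9 of 9 libraries, with a median of 229%.

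A list of 57 other genes of engulfment was read from the same fits, of which 55 could be tested in at least 1 class. With age 34 of 345 tests passed, 15 up and 19 down, or 9.86% against 9.68% of all genes, with a median log2 fold change of -0.08 against 0.01. With AAV-B3GNT3 9 passed, 5 up and 4 down, or 2.61% against 2.70%. In aged AAV-B3GNT3 against young AAV-EGFP mice 4 passed, or 1.16% against 1.46%. The list thus passed about as often as other genes. With each library left out in turn, 14 of the 34 calls with age, 1 of the 9 with AAV-B3GNT3 and none of the 4 of the last comparison always remained. By role, 13 of 83 tests of other engulfment receptors and bridging proteins passed with age (11 up), 8 of 38 of phosphatidylserine exposure (all down), 6 of 102 of engulfment machinery (1 up), 4 of 26 of other TAM ligands and sheddases (1 up), 3 of 42 of find-me and do-not-engulf signals (2 up), and none of 54 of signalling around the receptors.

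The complement genes C1qa, C1qb and C1qc, whose product tags synapses and debris for removal, rose with age in microglia and fell with AAV-B3GNT3. C1qc had 107, 131 and 132 CPM in young, 165, 453 and 318 CPM in aged AAV-EGFP and 107, 108 and 123 CPM in aged AAV-B3GNT3 libraries. Its log2 fold changes were 1.32 (SE 0.26, adjusted p = 0.00204) and -1.48 (SE 0.25, adjusted p = 0.00478), and the second was lost without aged AAV-B3GNT3 replicate 2 (adjusted p = 0.0523). C1qa and C1qb, named after their values were seen, gave 1.61 and 1.17 with age and -1.67 and -0.83 with AAV-B3GNT3. In this class 11.0% of genes passed with age and 2.90% with AAV-B3GNT3. Both calls of C1qa held with each library left out and under all 10 other settings, whereas the fall of C1qb held under only 3 of these settings and was lost without any 1 of 5 libraries (aged AAV-B3GNT3 replicates 2 and 3, aged AAV-EGFP replicates 2 and 3, young AAV-EGFP replicate 2). The rises of C1qb and C1qc did not pass when no doublets were removed or after subtraction of the free RNA estimate, nor did that of C1qb in microglia without astrocyte marker UMIs. The fall of C1qc was also lost after that subtraction. Mertk, in the same microglia, had 0.24 with age and -0.19 with AAV-B3GNT3. The estimate put 40.7 to 57.95% of microglia UMIs down to free RNA. C1qa and C1qb also passed with age in excitatory neurons (1.76 and 1.49) and oligodendrocytes (1.90 and 1.625), where 14.1% and 21.6% of genes passed. Their mean counts there were 14.4 to 18 UMIs. Of these calls only C1qa in oligodendrocytes held with each library left out. After subtraction of free RNA it did not pass, and the others could not be fitted.

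In astrocytes 12.1% of genes passed with age and 5.15% with AAV-B3GNT3. Xkr4, a member of the XKR scramblase family, had 224, 216 and 208 CPM in young, 85.1, 93.7 and 57.7 CPM in aged AAV-EGFP and 117, 200 and 156 CPM in aged AAV-B3GNT3 libraries. It fell with age (-1.47, SE 0.21, adjusted p = 0.000837), with each library left out too. Its rise with AAV-B3GNT3 (0.87, SE 0.21, adjusted p = 0.0313) was lost without replicate 2 or 3 of either aged group (highest adjusted p = 0.181) and when only the 2 groups were fitted. Tub, whose product has been described as a bridging ligand of MERTK, fell with age (-1.29, SE 0.23, adjusted p = 0.00254), also with each library left out, from 20.3 to 23.6 CPM in young to 7.69 to 11.4 CPM in aged AAV-EGFP libraries. In excitatory neurons Tub stood at 114 to 126 and 81.2 to 92.7 CPM in these groups. Elmo1, an adaptor that links engulfment receptors to Rac, had 69.7, 72.1 and 59.1 CPM in young, 32.9, 32.7 and 28.6 CPM in aged AAV-EGFP and 65.5, 112 and 56.0 CPM in aged AAV-B3GNT3 libraries, and it rose with AAV-B3GNT3 (1.20, SE 0.23, adjusted p = 0.0151), lost without replicate 2 of either aged group (highest adjusted p = 0.0737). Gulp1, an engulfment adaptor, was lower in aged AAV-B3GNT3 than in young mice (-0.89, adjusted p = 0.0267), also under all 10 other settings, but this was lost without replicate 1 or 2 of aged AAV-B3GNT3 or replicate 2 or 3 of young AAV-EGFP (highest adjusted p = 0.136).

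Markers of excitatory neurons in astrocytes were, like Xkr4, Tub and Elmo1, lowest by median in the aged AAV-EGFP group, at 266 to 311 CPM in young, 114 to 241 CPM in aged AAV-EGFP and 199 to 258 CPM in aged AAV-B3GNT3 libraries, and so was the free RNA estimate, at 27.0 to 30.0%, 13.9 to 22.7% and 21.03 to 24.7% of astrocyte UMIs. After subtraction of that estimate Xkr4, Tub and Elmo1 in astrocytes could not be fitted, so the part of free RNA in their changes was not tested.

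In oligodendrocytes, where 21.6% of genes passed with age and 8.00% with AAV-B3GNT3, the scramblase gene Ano6 and Vav3, which encodes an exchange factor for small GTPases, fell with age (-1.35 and -1.53), and both falls held with each library left out. Neither could be fitted after subtraction of free RNA, and markers of excitatory neurons in this class were at 344 to 349 CPM in young, 138 to 260 CPM in aged AAV-EGFP and 252 to 322 CPM in aged AAV-B3GNT3 libraries. Ano6 and Vav3 rose with AAV-B3GNT3 (1.16 and 1.03). The rise of Ano6 was lost without replicate 2 of any group or aged AAV-EGFP replicate 3 (highest adjusted p = 0.145), and that of Vav3 without any library other than replicate 1 of the aged groups (highest adjusted p = 0.199). Both rises were lost when only the 2 groups were fitted, and that of Vav3 also with the replicate block and with no upper limit on genes. Itgb5, an integrin subunit gene, was higher in aged AAV-B3GNT3 than in young mice (1.06, adjusted p = 0.0398). This was lost without any 1 of 6 libraries, which were every aged AAV-B3GNT3 library, aged AAV-EGFP replicate 2 and young AAV-EGFP replicates 2 and 3 (highest adjusted p = 0.162), and also after subtraction of free RNA and in nuclei without glial marker UMIs.

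The genes whose pattern was most like each member were found by Pearson's r of log2(CPM + 1) over the 81 sums of 9 classes and 9 libraries, among 10175 other genes. Sums of 1 library share its depth, so these are descriptions. For Mertk they were Crlf3 (0.912), Itpr2 (0.905) and Galnt1 (0.887), for Axl Mmp14 (0.883) and Pard3b (0.883), and for Tyro3 Srcin1 (0.760), Tmem178b (0.697) and Mapt (0.688). For Gas6 they were Tmem241 (0.772), Xpnpep1 (0.695) and Abca3 (0.691), for Pros1 Cflar (0.958), Lrp5 (0.944) and Zc3hav1 (0.927), and for Megf10 Cdh19 (0.887), Htra1 (0.866) and Hepacam (0.865). Among the members, Mertk was most like Pros1 (0.793) and Axl (0.769), whereas Tyro3 ran against Mertk (-0.421), Axl (-0.436) and Pros1 (-0.526).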

How the data were processed

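Nuclei of frozen brain hemispheres (cortex and hippocampus pooled) were stained for NeuN and DNA, sorted as singlets and sequenced with 10x Genomics 3′ v3.1 chemistry, 1 library per mouse. The authors deposited raw UMI counts per gene and nucleus. Their notes name Cell Ranger 4.0.0 and GRCm38, whereas the matrix headers name version 7.2.0. Whether intronic reads were counted was not stated in the sources used here. The study removed free RNA and doublets, but the deposited counts are from before those steps.

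Here nuclei with 200 to 5000 genes and under 10% mitochondrial UMIs were kept, and 5532 of 77823 barcodes were left out as doublets, those with the highest share of simulated doublets among their neighbours, with their number set by the load of the library. Clusters (scanpy 1.11.5, 2000 variable genes, 15 components, 20 neighbours, Leiden resolution 0.3) were named from at least 3 markers. Neuron clusters in which transmitter genes of both neuron types exceeded 50 CPM stayed unnamed, a choice made after seeing the clusters. They and the other unnamed nuclei were 7.12 to 10.67% of nuclei in young AAV-EGFP, 2.21 to 9.60% in aged AAV-EGFP and 2.59 to 7.06% in aged AAV-B3GNT3 libraries.

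Counts were summed per library and class and tested with edgeR 4.0.16 (quasi-likelihood F-test, TMM, filterByExpr with a minimum count of 10, all 9 libraries in 1 fit per class, Benjamini-Hochberg over all genes of the class, threshold 0.05). Self-tests on simulated counts preceded the fits. Relations across libraries are descriptions, and those of deviations from group means were tested by all 216 permutations within groups (two-sided, Benjamini-Hochberg over the 6 relations). Alternatives are DESeq2 1.42.0, RLE factors, no count filter, only the 2 groups compared, the replicate number as a block, other nucleus filters, a finer clustering (resolution 1.0), a free RNA estimate, and each library left out.

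The 6 genes and the gene lists were chosen with earlier results of these data known. Named are all 6 genes and, of the engulfment list, the 5 largest changes per comparison past the threshold with a mean count of at least 50. Axl had 2324 UMIs in all, against 68160 of Mertk, and counting limits the precision of such low genes. Libraries of 1 group also differed beyond sampling noise, so all 9 were used as separate replicates. No sequences are printed, since no values here bear on them. Values of some genes that these rules name are not reported here.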

Additional observations from a re-analysis of the deposited data

Results flagged for a closer look

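Opposite movements in 2 classes, with no overlap between the groups in either, are listed here, with their fold changes where both classes had enough counts for a fit. None of these differences was tested, and how many of all genes move in this way was not counted. An exact two-sided permutation test of 3 against 3 libraries cannot give a p under 0.1, even with no overlap. Mertk was higher with age in microglia and lower in 3 other classes, so that its log2 fold change in microglia exceeded that in excitatory neurons by 1.26, that in inhibitory neurons by 0.87 and that in oligodendrocytes by 1.63. With AAV-B3GNT3 the order was the other way, and the fold change in microglia was below that in excitatory neurons by 1.30, that in inhibitory neurons by 0.527 and that in oligodendrocytes by 1.74. These contrasts share the aged AAV-EGFP libraries, and Mertk was chosen with its values in neurons known. Axl was higher with AAV-B3GNT3 in astrocytes (53.2 to 62.3 against 41.4 to 50.8 CPM) and lower in fibroblasts, a difference of 0.932. Pros1 in aged AAV-B3GNT3 against young AAV-EGFP mice was higher in inhibitory neurons (4.90 to 5.88 against 2.45 to 3.32 CPM) and lower in brain endothelial cells (68.7 to 98.5 against 99.5 to 151 CPM), a difference of 1.39. Megf10 with AAV-B3GNT3 was higher in brain endothelial cells (12.5 to 30.5 against 4.69 to 12.4 CPM, on 1 to 7 UMIs a library, too few for a fit) and lower in oligodendrocytes.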

How the results depend on the processing

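Of the 6 genes, outside Mertk in neurons and oligodendrocytes, 1 test passed with age, none with AAV-B3GNT3 and none in aged AAV-B3GNT3 against young AAV-EGFP mice. With age 2 of 41 passed in DESeq2 (9.89% of all tests), 2 of 41 when no doublets were removed (8.27%) and 6 of 51 with no filter on low counts (6.87%). With AAV-B3GNT3 1 of 51 passed with no filter (3.62%). In the last comparison 1 of 42 passed in DESeq2 (2.33%), 3 of 51 with no filter (2.52%) and 1 of 41 when only the 2 groups were fitted (3.04%). The cause was not tested. With the replicate number as a block, 3 of 43 passed with age (8.49% of all tests) and 2 of 43 in the last comparison (1.35%). Whether the number stands for mice handled together is not known. Over 81 pairs with the same number, correlations of deviations from group means ran from -0.377 to 0.492, with 33 over 0.1. Pairs with unlike numbers are not given beside them, so these values cannot decide it. With each library left out the counts ranged from 0 to 6 with age (6 without aged AAV-EGFP replicate 1, 0 without replicate 2 or 3 of that group), from 0 to 1 with AAV-B3GNT3 and from 0 to 3 in the last comparison. Of the engulfment list 34 of 345 tests passed with age and 9 with AAV-B3GNT3. After subtraction of the free RNA estimate 11 and 2 of 290 passed, where the shares of all tests fell to 4.08% and 0.338%, and with AAV-B3GNT3 19 of 498 passed with no filter (3.62%) and 3 of 329 when only the 2 groups were fitted (1.64%). Leaving out libraries gave 18 to 53 (53 without aged AAV-EGFP replicate 1, where 15.7% of all tests passed) and 1 to 15 (15 without the same library, 1 without aged AAV-B3GNT3 replicate 2).

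The log2 fold change of Mertk in excitatory neurons with age was -1.45 with no doublets removed and -0.76 with no upper limit on genes; that with AAV-B3GNT3 was 1.63, 0.87 and, in nuclei without glial marker UMIs, 1.61, where the change against young mice was 0.40. In inhibitory neurons it was -1.01 with age and 0.78 with AAV-B3GNT3 at the finer clustering, and -0.94 and 0.65 in nuclei without glial marker UMIs. Leaving out libraries gave ranges, with age, with AAV-B3GNT3 and against young, of -1.27 to -0.88, 0.96 to 1.35 and -0.02 to 0.26 in excitatory neurons, -0.76 to -0.52, 0.24 to 0.50 and -0.41 to -0.13 in inhibitory neurons, and -1.57 to -1.08, 1.22 to 1.90 and -0.20 to 0.50 in oligodendrocytes. Pearson's r with astrocyte markers was 0.600 in excitatory neurons as deviations from group means, and in inhibitory neurons, where it was 0.651, it was 0.789 at the finer clustering and 0.784 with no doublets removed. Of 2183 recalculations of 120 tested fold changes, 17 of the settings and 11 of the fits with a library left out passed where the value reported did not, and 3 of the latter failed where it passed. With no upper limit on genes no fibroblast class could be named. Outside astrocytes, fibroblasts and oligodendrocyte precursors Axl rests on 0 to 26 UMIs a library.

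The sign of a tested fold change turned in 45 of the recalculations under another setting, for 29 fold changes, and in 97 of those with a library left out, for 50. None of these fold changes had passed, and none passed with the sign turned. At the finer clustering the values were, with age Megf10 in fibroblasts -0.49, and with AAV-B3GNT3 Axl in oligodendrocyte precursors -0.073, Megf10 in inhibitory neurons 0.028, Mertk in brain endothelial cells 0.084 and Pros1 in fibroblasts 0.31, and against young Pros1 in fibroblasts 0.73. After subtraction of free RNA the values were, with age Axl in astrocytes -0.14, Gas6 in excitatory neurons -0.011, Megf10 in astrocytes -0.093, Megf10 in inhibitory neurons 0.40, Megf10 in oligodendrocytes -0.061, Pros1 in microglia -0.091 and Tyro3 in astrocytes 0.064, and with AAV-B3GNT3 Axl in oligodendrocyte precursors -9.2e-05, Megf10 in astrocytes 0.013, Tyro3 in astrocytes -0.39 and Tyro3 in oligodendrocyte precursors -0.083, and against young Megf10 in inhibitory neurons 0.25, Megf10 in oligodendrocyte precursors -0.015, Mertk in microglia -0.021 and Tyro3 in inhibitory neurons 0.11. With no doublets removed the values were, with age Gas6 in brain endothelial cells 0.15 and Mertk in fibroblasts 0.45, and with AAV-B3GNT3 Megf10 in inhibitory neurons 0.0094. In DESeq2 the values were, with age Gas6 in excitatory neurons -0.0069, and against young Megf10 in astrocytes 0.0044. With RLE factors the values were, with AAV-B3GNT3 Megf10 in inhibitory neurons 0.0041, and against young Megf10 in astrocytes 0.0076. With no filter on low counts the values were, with AAV-B3GNT3 Mertk in pericytes 0.048, and against young Megf10 in astrocytes 0.0063 and Megf10 in oligodendrocyte precursors -0.0040. In nuclei without glial marker UMIs the values were, with AAV-B3GNT3 Megf10 in inhibitory neurons 0.38 and Tyro3 in astrocytes -0.011, and against young Gas6 in inhibitory neurons -0.025, Megf10 in astrocytes 0.0032 and Pros1 in oligodendrocytes -0.027. With no upper limit on genes the values were, with AAV-B3GNT3 Axl in oligodendrocyte precursors -0.036, Megf10 in inhibitory neurons 0.081 and Megf10 in oligodendrocyte precursors 0.017, and against young Pros1 in excitatory neurons -0.00052. When only the 2 groups were fitted the values were, with AAV-B3GNT3 Axl in oligodendrocyte precursors -0.013, and against young Megf10 in astrocytes 0.021. With the replicate block the values were, with AAV-B3GNT3 Axl in oligodendrocyte precursors -0.015 and Megf10 in inhibitory neurons 0.035, and against young Pros1 in pericytes 0.027.

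The ranges with a library left out of the fold changes whose sign turned were as follows. With age, Mertk ran from -0.41 to 0.061 in brain endothelial cells, -0.29 to 0.16 in fibroblasts, -0.18 to 0.90 in oligodendrocyte precursors and -0.12 to 0.43 in pericytes. With age, Axl ran from -0.093 to 0.17 in astrocytes and -0.87 to 0.66 in excitatory neurons. With age, Gas6 ran from -0.22 to 0.22 in brain endothelial cells, -0.073 to 0.052 in excitatory neurons, -0.0041 to 0.17 in inhibitory neurons, -0.035 to 0.56 in microglia and -0.13 to 0.23 in oligodendrocytes. With age, Pros1 ran from -0.022 to 0.58 in astrocytes, -0.067 to 0.30 in brain endothelial cells, -0.13 to 0.22 in microglia and -0.24 to 0.39 in oligodendrocytes. With age, Megf10 ran from -0.033 to 0.20 in astrocytes, -0.26 to 0.34 in fibroblasts, -0.38 to 0.012 in inhibitory neurons and -0.029 to 0.26 in oligodendrocyte precursors. With AAV-B3GNT3, Mertk ran from -0.33 to 0.40 in oligodendrocyte precursors and -0.30 to 0.24 in pericytes. With AAV-B3GNT3, Axl ran from -0.11 to 0.11 in oligodendrocyte precursors. With AAV-B3GNT3, Tyro3 ran from -0.20 to 0.35 in astrocytes, -0.57 to 1.30 in fibroblasts and -0.18 to 0.46 in oligodendrocyte precursors. With AAV-B3GNT3, Gas6 ran from -0.18 to 0.23 in astrocytes and -0.10 to 0.032 in inhibitory neurons. With AAV-B3GNT3, Pros1 ran from -0.10 to 0.29 in astrocytes, -0.25 to 0.35 in inhibitory neurons, -0.29 to 0.34 in oligodendrocytes and -0.13 to 0.12 in oligodendrocyte precursors. With AAV-B3GNT3, Megf10 ran from -0.18 to 0.024 in astrocytes, -0.20 to 0.20 in inhibitory neurons and -0.26 to 0.027 in oligodendrocyte precursors. Against young, Mertk ran from -0.052 to 0.39 in fibroblasts, -0.040 to 0.092 in microglia, -0.068 to 0.99 in oligodendrocyte precursors and -0.029 to 0.38 in pericytes. Against young, Axl ran from -0.13 to 1.15 in excitatory neurons and -0.20 to 0.16 in fibroblasts. Against young, Tyro3 ran from -0.12 to 0.087 in inhibitory neurons. Against young, Gas6 ran from -0.023 to 0.12 in inhibitory neurons, -0.22 to 0.18 in microglia and -0.048 to 0.55 in oligodendrocyte precursors. Against young, Pros1 ran from -0.27 to 0.19 in fibroblasts, -0.36 to 0.015 in microglia and -0.32 to 0.45 in pericytes. Against young, Megf10 ran from -0.057 to 0.11 in astrocytes, -0.33 to 0.00054 in inhibitory neurons and -0.063 to 0.12 in oligodendrocyte precursors.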
